A study of Mus musculus with 7 samples.

Results

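The enzymes that make itaconate and that use arginine were followed in mouse neutrophils at rest and at inflamed sites. The 3 genes described are Irg1, Nos2 and Odc1, which were chosen by name, with earlier results of these data known, out of 28719 gene symbols listed in the count tables. Neutrophils were sorted as live CD11b+ Ly6G+ cells from male C57BL/6J mice and sequenced as single cells with the droplet method of 10X Genomics. Its molecular barcodes (UMIs) let each transcript be counted once. Healthy blood, bone marrow and spleen were sampled in 2 runs, with cells pooled from 3 mice in each library, and the mice were 6 weeks old in run 1 and 8 weeks old in run 2. A separate library held 5 conditions in mice of 8 weeks, told apart by hashtag oligomers, again with 3 mice pooled in each. These were blood of untreated mice (unstim_blood), blood and joint lavage of mice with arthritis on day 7 after 150 µl of K/BxN serum on days 0 and 2 (KBxN_blood and KBxN_joint), bronchoalveolar lavage 3 hours after 25 ng of intranasal IL-1β (IL1_lung), and peritoneal lavage 3 hours after 25 ng of IL-1β into the peritoneum (IL1_peritoneum).

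Irg1, now named Acod1, encodes the mitochondrial enzyme that turns the TCA cycle intermediate cis-aconitate into itaconate, a metabolite known from activated macrophages, where it inhibits succinate dehydrogenase and activates the NRF2 response. Arginine feeds several pathways. The inducible nitric oxide synthase Nos2 makes nitric oxide and citrulline from it, and Odc1, ornithine decarboxylase, takes ornithine, which derives from arginine, into the polyamine pathway.

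On the GRCm38 assembly, which is mm10, the GENCODE annotation places Irg1 on the plus strand of chromosome 14 from 103046977 to 103056573, and Nos2 on the plus strand of chromosome 11 from 78920787 to 78960254. Odc1 lies on the plus strand of chromosome 12 from 17544794 to 17551505. It overlaps Gm22748 on its own strand, while Irg1 and Nos2 overlap no other gene.

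The promoter of Irg1 is shown because most of the results concern this gene. RefSeq promoter sequences were held for 2 of the 3 genes, Irg1 and Odc1. The 250 bases before the RefSeq start of Irg1, on the plus strand of GRCm38.p6 at chr14:103046762-103047011, read as follows, with TATAAA and GGAAATTCC in capitals.
Irg1: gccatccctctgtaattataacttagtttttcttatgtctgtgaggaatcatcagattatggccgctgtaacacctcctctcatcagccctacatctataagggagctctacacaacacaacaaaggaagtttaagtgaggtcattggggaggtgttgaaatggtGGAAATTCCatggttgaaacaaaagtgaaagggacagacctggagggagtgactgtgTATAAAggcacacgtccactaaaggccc
The GENCODE gene given above begins 35 bases before this RefSeq start, from which positions are counted. TATAAA, searched on the sense strand, began 28 bases before the RefSeq start, which is inside the GENCODE gene, and occurred in the same window of 7.59% of 32851 mouse promoters. GGAAATTCC, a κB-like stretch that was chosen after the sequence had been read, began 85 bases before the RefSeq start and occurred on either strand in 0.286% of promoters. No match was found on either strand for the longer κB consensus, present in 9.55% of promoters, AP-1 (TGANTCA, 6.75%), C/EBP (TTGCNNAA, 9.56%), the interferon-stimulated response element (2.98%), the GAS element (TTCNNNGAA, 7.02%) or the E-box (CACGTG, 6.02%). None of these motifs was found in the same window of Odc1, which was 80.0% G and C against 44.4% in Irg1. A match of letters is a description and shows no binding.

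The cells used were those the deposited annotation calls granulocytes in the inflammation library (4852 of 4856 cells) and neutrophil-like clusters in the healthy libraries, after filters that kept 4768 and 12041 cells. The inflammation library gave 506 cells with 1122880 UMIs in healthy blood, 802 with 2646454 in KBxN_blood, 2806 with 9937200 in KBxN_joint, 367 with 1312517 in IL1_lung and 287 with 939662 in IL1_peritoneum. Healthy libraries held between 1112 and 3296 kept cells. All 15 neutrophil markers had UMIs in every one of these 11 sets of cells. Pairs of libraries shared between 0 and 36 cell barcodes. Markers of monocytes and macrophages (11 genes) summed to between 283 and 390 CPM in the 5 conditions, and Ccr2 had UMIs in the joint alone among them. CPM stands for UMIs per 1000000 UMIs of the summed cells, and every interval in brackets is a 95% interval for counting error alone, since each inflamed condition is 1 pool of mice and allows no test between conditions. In such sums, fewer cells that use a gene and less of its RNA per cell cannot be told apart.

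Irg1 was low in blood and high at each inflamed site. Healthy blood of the inflammation library held 53 Irg1 UMIs, which is 47.2 CPM (35.4 to 61.7). KBxN_blood stood at 77.8 CPM (67.6 to 89.2). KBxN_joint reached 1487 CPM (1463 to 1511), IL1_lung 1556 CPM (1489 to 1625) and IL1_peritoneum 2675 CPM (2572 to 2782). The intervals of the inflamed sites lay far above those of either blood sample, and those of the joint and the lung overlapped each other.

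Relative to healthy blood, Irg1 was 31.5-fold higher (24.1 to 42.1) in the arthritic joint, 33.0-fold higher (25.1 to 44.2) in the lung and 56.7-fold higher (43.2 to 75.9) in the peritoneum. Among 3885 genes with a mean of at least 20 CPM over the 5 conditions, its fold ranked 12th from the highest in the joint, 23rd in the lung and 14th in the peritoneum. In blood of arthritic mice the fold was 1.65 (1.21 to 2.27), and the joint stood 19.1-fold (16.6 to 22.0) above that blood. The peritoneum exceeded the lung 1.72-fold (1.62 to 1.82). On the scale of total UMIs the joint and the lung differed by less than the counting error (0.956-fold, 0.913 to 1.00).

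These folds are on the scale of total UMIs, on which the median gene was itself lower than in healthy blood, by log2 values of -0.34 in KBxN_blood, -0.36 in KBxN_joint, -0.83 in IL1_lung and -0.85 in IL1_peritoneum. Scaling by TMM, which centres on the bulk of the genes, raises every log2 fold over healthy blood by 0.46, 0.57, 0.91 and 0.92, respectively. On that scale the Irg1 folds were 2.27 (1.67 to 3.14) in KBxN_blood, 46.8 in the joint, 61.9 in the lung and 107 in the peritoneum. The lung then stood further above the joint than on total UMIs, so that their nearness above holds on total UMIs only.

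**Figure D1:**
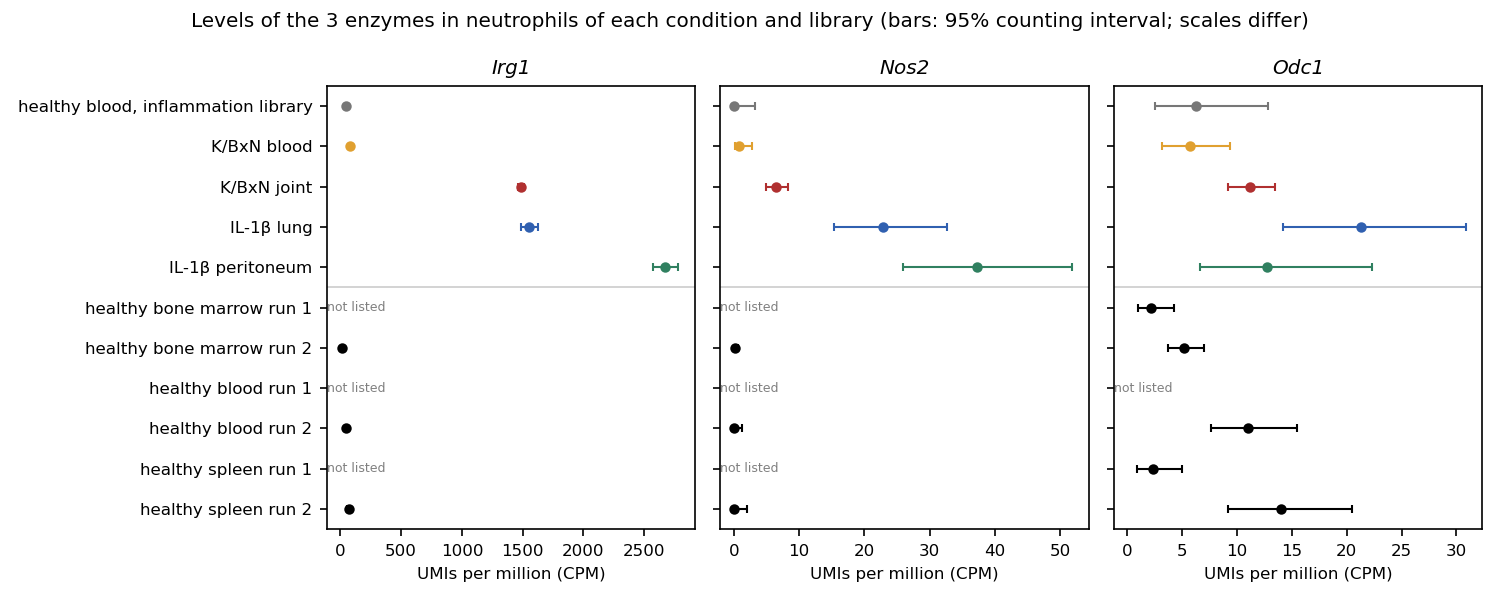
Levels of the 3 enzymes in CPM (horizontal axes, which differ between panels) in the 5 conditions of the inflammation library and the 6 healthy libraries (rows), with bars for 95% counting intervals and "not listed" where the deposited table has no row for the gene. Irg1 is at 1487 to 2675 CPM at the inflamed sites and at 77.8 CPM or less elsewhere, while Nos2 and Odc1 stay at or below 37.2 and 21.3 CPM.

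Per cell, Irg1 was seen in a larger share of cells at the inflamed sites than in blood. Cells were compared after thinning each to 1000 UMIs, which left out 152 of 506 cells of healthy blood, 133 of KBxN_blood, 118 of KBxN_joint, 81 of IL1_lung and 56 of IL1_peritoneum. An Irg1 UMI was then found in 3.95% of cells of healthy blood (2.18 to 6.55), 7.47% of KBxN_blood (5.60 to 9.73), 51.7% of the joint (49.8 to 53.6), 54.9% of the lung (48.9 to 60.8) and 76.6% of the peritoneum (70.6 to 81.9). Without thinning these shares were 9.49%, 20.1%, 73.3%, 77.9% and 87.5%, and after thinning to 500 UMIs they were 2.96%, 5.36%, 38.0%, 42.8% and 58.5%. The library held only 4 cells that the annotation does not call granulocytes, so that no cell type lacking Irg1 could serve as its measure of free RNA.

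Cells differed widely in Irg1 within a site. At 1000 UMIs per cell, the share with 5 or more Irg1 UMIs was 8.71% in the joint, 9.09% in the lung and 18.2% in the peritoneum, with up to 19, 18 and 17 UMIs in a cell, and no cell of either blood sample had as many as 5. In the joint the 281 cells with the most Irg1 UMIs, of 2806, held 43.9% of them. In the lung the top 37 of 367 cells held 45.3% and in the peritoneum the top 29 of 287 held 34.4%. The median Irg1 level of single cells was 705 CPM in the joint, 941 CPM in the lung and 1897 CPM in the peritoneum, each below the CPM of the summed cells.

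**Figure D2:**
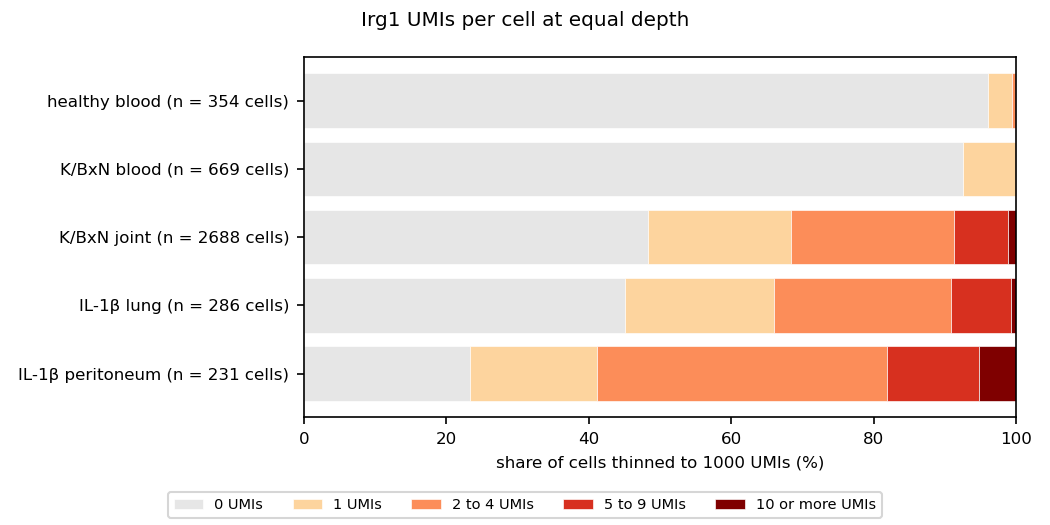
Share of cells (horizontal axis, %) by the number of Irg1 UMIs after thinning each cell to 1000 UMIs, for the 5 conditions (rows, with the number of cells). Cells without an Irg1 UMI make up 96.0% of healthy blood and 23.4% of the peritoneum.

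The deposited annotation names the ImmGen reference population nearest to each cell, and Irg1 differed between these classes within the joint. It was at 1648 CPM (1620 to 1676) in the 2215 joint cells of the synovial fluid class GN.Arth.SynF and at 1515 CPM (1419 to 1615) in the 241 cells of the peritoneal class GN.Thio.PC. The 253 joint cells of the blood class GN.Bl stood at 312 CPM (276 to 350), above the 74.1 CPM (63.7 to 85.7) of the 654 GN.Bl cells of KBxN_blood. A further class, GN.UrAc.PC, stood at 411 CPM (335 to 500) in 96 joint cells and at 176 CPM (98.2 to 290) in 124 cells of KBxN_blood, which had a median of 590 UMIs. In the peritoneum the GN.Arth.SynF and GN.Thio.PC cells held 2855 CPM (2693 to 3024) and 2991 CPM (2825 to 3163), and in the lung 1623 CPM (1550 to 1699) and 1898 CPM (1616 to 2215). These classes were assigned from the same transcripts, so that the differences are given without a test.

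In blood, Irg1 was highest in the cells with the fewest UMIs. In the lowest UMI quartile of healthy blood cells (median 578 UMIs) Irg1 was at 135 CPM from 10 of its UMIs, and in the others it was at 49.4, 45.5 and 33.0 CPM from 12, 16 and 15. KBxN_blood showed 130 CPM in its lowest quartile (median 702 UMIs) and 59.4, 76.0 and 79.1 CPM in the others, with no fall among these. The lowest and highest quartiles held 1235 and 1627 CPM in the joint, 1800 and 1488 CPM in the lung, and 2741 and 2299 CPM in the peritoneum. With cells of at least 1000 UMIs alone, a choice made after seeing these values, the fold of KBxN_blood over healthy blood was 1.84. The part of free Irg1 RNA from the inflamed cells of the same library in the blood values was not tested.

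Healthy Irg1 came from run 2 alone, because the count tables of run 1 have no row for Irg1 or Nos2. Every row of those tables sums to at least 11 UMIs, but they also lack rows for abundant genes such as Ppia, so that a missing row was taken as missing and not as 0. In run 2 Irg1 was at 14.7 CPM in bone marrow (12.2 to 17.5), 45.8 CPM in blood (38.4 to 54.1) and 66.3 CPM in spleen (55.1 to 79.1), with intervals that did not overlap for neighbours in this order. The run 2 blood value lay within the interval of healthy blood in the inflammation library. By the study's methods, the healthy libraries used version 2 of the 10X reagents and the inflammation library version 3. Irg1 UMIs were seen in 5.09% of splenic neutrophil-like cells (median 763 UMIs), against 0.515% of B-cell-like (median 1428) and 0.146% of T-cell-like cells (median 1984) of the same library. In run 2 blood the shares were 3.97% of neutrophil-like cells (median 819 UMIs) and 1.96% (0.238 to 6.90) of B-cell-like cells (median 1670). Per UMI the B-cell-like cells held 10.4 CPM (1.26 to 37.6), from 2 UMIs, an interval below that of the neutrophil-like cells.

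Within healthy bone marrow, Irg1 differed with the granule genes of the cells. Camp, Ngp, Ltf and Lcn2 encode proteins of the secondary granules that are made during maturation in the bone marrow, and cells were split, after seeing the data, by the share of their UMIs from these 4 genes. Run 2 bone marrow was the one library listing Irg1 that held at least 50 cells in each of 3 classes, with 1179 of its 3296 cells under 1%, 1015 between 1% and 5% and 1102 at 5% or more. Irg1 was at 42.9 CPM (33.9 to 53.6) in cells under 1% granule UMIs, 17.3 CPM (12.2 to 23.7) between 1% and 5%, and 1.62 CPM (0.650 to 3.33) at 5% or more, with intervals that did not overlap. Of these cells, 304 lay within 10% of either limit.

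Cells under 1% made up 3229 of 3278 cells of run 2 blood and 1943 of 2024 of run 2 spleen, where Irg1 stood at 47.2 CPM (39.6 to 55.9) and 76.5 CPM (63.5 to 91.4). The interval of the same class in bone marrow overlapped that of blood and lay below that of spleen. In spleen the 58 cells at 5% or more held no Irg1 UMI, with an upper limit of 15.5 CPM.

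Of the 3 genes Irg1 alone had a mean of at least 20 CPM over the conditions and so entered the count of genes past 2-fold. It was at least 2-fold higher than healthy blood in the joint, as were 10.6% of the 3885 genes, in the lung, as were 12.1%, and in the peritoneum, as were 12.3%. In KBxN_blood it was not, against 0.849% of genes, but with TMM scaling it passed 2-fold there too (2.27). The shares of genes at least 2-fold lower were 44.0%, 44.9%, 18.5% and 4.63% in the lung, peritoneum, joint and KBxN_blood, and with TMM scaling the higher and lower shares became 25.7% and 16.2% in the lung, 25.6% and 15.3% in the peritoneum, 20.2% and 4.24% in the joint, and 3.43% and 0.654% in KBxN_blood.

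By the fixed rule of likeness, the genes whose log2 levels most closely followed Irg1 over the 8 sets of cells that list it were Ccrl2 (r = 0.992), a non-signalling chemoattractant receptor, Clec4e (r = 0.988), which encodes the pattern receptor Mincle, and Plek (r = 0.984), a substrate of protein kinase C. The 8 points fall into 3 inflamed sites and 5 resting or blood sets and share libraries, so that the coefficients mainly describe this split. Ccrl2 was at 22.3 CPM in healthy blood, 21.5 CPM in KBxN_blood, 694 CPM in the joint, 514 CPM in the lung and 666 CPM in the peritoneum.

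Nos2 was detected at low levels at the inflamed sites. No UMI of Nos2 was found in healthy blood of the inflammation library (0 of 506 cells, which allows a share of cells with a Nos2 UMI of up to 0.593%, taking 3 cells as the limit), and 2 were found in KBxN_blood. KBxN_joint held 64 Nos2 UMIs or 6.44 CPM (4.96 to 8.22), IL1_lung 30 UMIs or 22.9 CPM (15.4 to 32.6) and IL1_peritoneum 35 UMIs or 37.2 CPM (25.9 to 51.8). The joint lay below both IL-1β sites, whose own intervals overlapped. Against a floor of 3 UMIs in healthy blood, Nos2 stood 2.41-fold higher in the joint, 8.56-fold in the lung and 13.9-fold in the peritoneum. These folds leave out the counting error of the sites. The floor equals 2.67 CPM, below the exact upper limit of 3.29 CPM for healthy blood, so that they are no strict lower bounds. The peritoneum exceeded the joint 5.78-fold (3.72 to 8.87).

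Few cells held the Nos2 UMIs. They came from 30 of 2806 joint cells, 14 of 367 lung cells and 16 of 287 peritoneal cells, and a single lung cell held 11 of the 30 UMIs. Without that cell the lung stood at 14.5 CPM. Without thinning, Irg1 UMIs were also present in 26 of the 30 Nos2 cells of the joint, 13 of 14 in the lung and 15 of 16 in the peritoneum, cells whose median UMI counts (4010, 4538 and 5129) exceeded those of the cells without Nos2 (3510, 3758 and 3460). After thinning to 1000 UMIs, 7 of 8 joint cells with Nos2 had an Irg1 UMI (87.5%, 47.3 to 99.7), against 51.6% (49.7 to 53.5) of the other joint cells, so that the difference lay within the counting error. Healthy neutrophil-like cells of run 2 held 1 Nos2 UMI, in bone marrow.

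By nearest ImmGen population, 61 of the 64 joint UMIs of Nos2 lay in GN.Arth.SynF cells, at 7.47 CPM (5.71 to 9.59), against 1 UMI each in GN.Bl cells (1.10 CPM, 0.0280 to 6.16) and GN.Thio.PC cells (1.62 CPM, 0.0410 to 9.02). Both of these intervals overlapped that of GN.Arth.SynF. In the peritoneum GN.Arth.SynF and GN.Thio.PC cells did not differ beyond counting error, at 46.7 CPM (28.1 to 73.0) and 34.2 CPM (18.7 to 57.3).

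Markers of monocytes and macrophages were measured beside Nos2. The 11 markers summed to 248 CPM in the joint cells with Nos2 and 302 CPM in those without, to 265 and 299 CPM in the lung, and to 336 and 395 CPM in the peritoneum. A UMI of the list was seen in 14 of 30, 8 of 14 and 13 of 16 cells with Nos2, and in 47.5%, 43.6% and 56.1% of those without. Csf1r, Ly6c2 and Adgre1 of the list had UMIs in the cells with Nos2 at all 3 sites, joined by C1qb and Ms4a6c in the joint, and the other markers had none there. In the more numerous cells without Nos2, 11 markers were seen in the joint, 7 in the lung and 8 in the peritoneum. The 15 neutrophil markers summed to 235535, 263182 and 264734 CPM in the cells with Nos2 and to 178493, 211647 and 203610 CPM in the others.

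Odc1 was low throughout. It was at 6.23 CPM (2.51 to 12.8, 7 UMIs) in healthy blood, 5.67 CPM (3.17 to 9.35) in KBxN_blood, 11.2 CPM (9.19 to 13.5) in KBxN_joint, 21.3 CPM (14.2 to 30.8) in IL1_lung and 12.8 CPM (6.60 to 22.3) in IL1_peritoneum. The lung was the only condition whose fold over healthy blood, 3.42 (1.46 to 9.28), had an interval clear of 1 on the scale of total UMIs. With TMM scaling the joint, lung and peritoneum all did, at 2.66 (1.25 to 6.78), 6.42 (2.74 to 17.4) and 3.88 (1.41 to 11.6). As a mean over cells of each cell's CPM the folds were lower, at 1.17, 2.63 and 0.998. On total UMIs the joint was 1.79-fold (0.841 to 4.56), the peritoneum 2.05-fold (0.744 to 6.14) and KBxN_blood 0.909-fold (0.349 to 2.64). The joint exceeded KBxN_blood 1.97-fold (1.14 to 3.64). After thinning, an Odc1 UMI was found in between 0.282% of cells in healthy blood and 1.75% in the lung. In thinned joint cells Odc1 was seen in 1.01% (0.552 to 1.68) of the 1390 cells with Irg1 and in 1.31% (0.765 to 2.09) of the 1298 without, shares that did not differ beyond counting error.

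**Figure D3:**
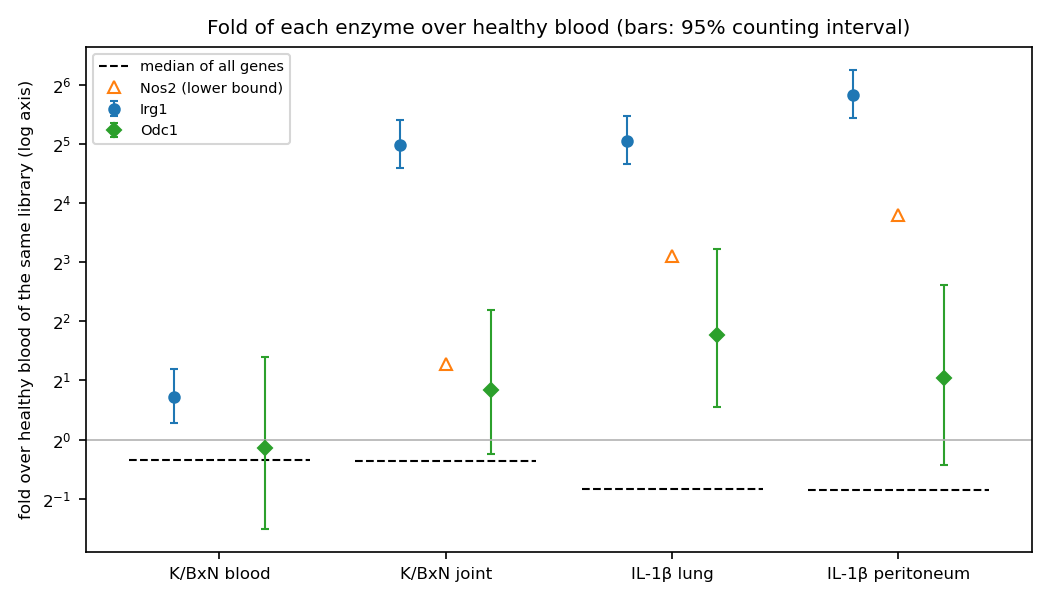
Fold of Irg1, Nos2 and Odc1 over healthy blood of the same library (vertical axis, log scale) in the 4 other conditions, with bars for 95% counting intervals and dashed lines for the median of 3885 genes. Open triangles, labelled as lower bounds, show Nos2 over the floor of 3 UMIs without the counting error of the site. Irg1 stands 31.5-fold to 56.7-fold above healthy blood at the 3 sites and Odc1 1.79-fold to 3.42-fold, with wide intervals, while the median gene lies below 1.

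Among healthy libraries Odc1 was at 2.16 and 5.17 CPM in bone marrow of runs 1 and 2, 2.29 and 14.0 CPM in spleen, and 11.0 CPM in run 2 blood, with no row in run 1 blood. Spleen was higher than bone marrow in 2 of 2 runs, with intervals that overlapped in run 1 and did not in run 2 (9.15 to 20.5 against 3.74 to 6.96). An exact permutation test of spleen against bone marrow, 2 libraries each and two-sided, gave p = 0.667, where the smallest p that this design allows is 0.333. With bone marrow and spleen paired by run, the exact permutation p was 0.5, the smallest that 2 pairs allow, and the mean difference of log2(CPM + 1) was 0.67. In granule-rich cells of run 2 bone marrow Odc1 was not lower, at 6.70 CPM (4.49 to 9.62) in cells at 5% or more and 2.79 CPM (0.905 to 6.504) in cells under 1%, with overlapping intervals.

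**Figure D4:**
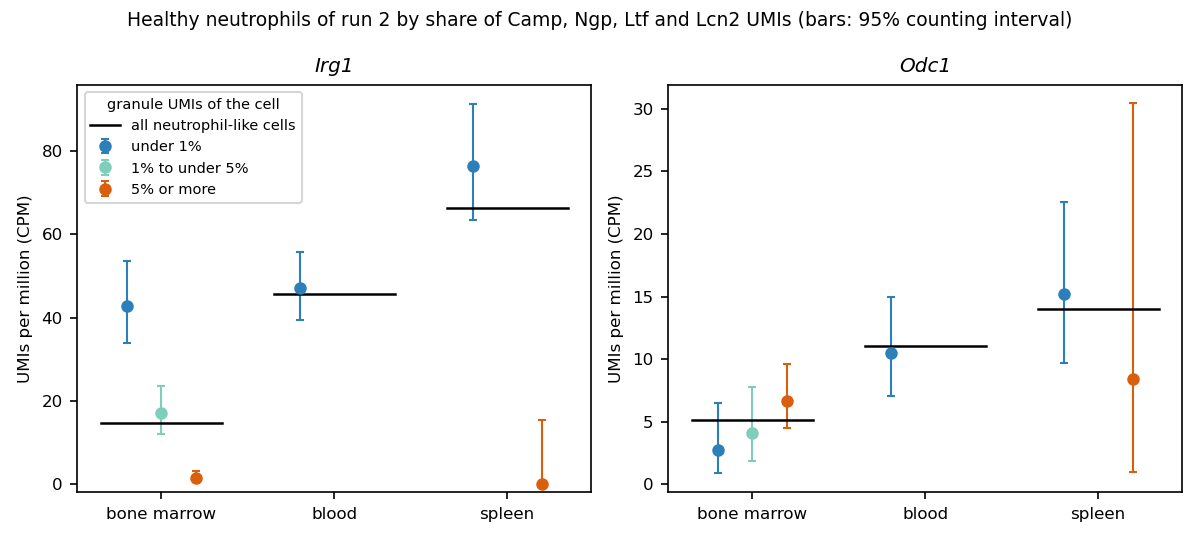
Irg1 (left) and Odc1 (right) in CPM (vertical axes, which differ) in the healthy libraries of run 2 (horizontal axis), for all neutrophil-like cells (black lines) and for cells split by the share of UMIs from Camp, Ngp, Ltf and Lcn2 (points with 95% counting intervals, drawn for at least 50 cells). In bone marrow Irg1 runs from 42.9 CPM in cells under 1% to 1.62 CPM in cells at 5% or more, while the Odc1 intervals of the classes overlap.

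The wider pathways were read from 7 lists of 109 genes, of which 41 had a mean of at least 20 CPM over the 5 conditions. In KBxN_blood none of the 41 was past 2-fold, in the joint 12 were higher and 4 lower, in the lung 16 were higher and 13 lower, and in the peritoneum 15 were higher and 9 lower. Over all genes 10.6% were higher and 18.5% lower in the joint, 12.1% and 44.0% in the lung, and 12.3% and 44.9% in the peritoneum. With a minimum of 5 CPM in place of 20, the counts were 14 and 9, 17 and 24, and 16 and 20 of 58, so that in the lung and peritoneum more were lower than higher, beside 9.17% and 25.1%, 10.4% and 50.6%, and 10.1% and 52.2% of 6443 genes. With TMM scaling and the minimum of 20 CPM, 42 list genes entered. In KBxN_blood 3 were then higher and 0 lower (3.43% and 0.654% of all genes), in the joint 16 and 0 (20.2% and 4.24%), in the lung 19 and 4 (25.7% and 16.2%), and in the peritoneum 19 and 2 (25.6% and 15.3%).

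Around itaconate, the TCA cycle list stood below the median gene at the sites and the NRF2 list above it. Of 8 TCA cycle genes none was past 2-fold higher at any site, while 2 were lower in the joint, 5 in the lung and 6 in the peritoneum. Over all genes 18.5%, 44.0% and 44.9% were lower at these sites. The median log2 fold of the list was -0.77 in the joint, -1.69 in the lung and -1.34 in the peritoneum, beside -0.36, -0.83 and -0.85 over all genes. On the TMM scale the list medians were -0.20, -0.78 and -0.41, with 0, 2 and 1 genes past 2-fold lower, beside 4.24%, 16.2% and 15.3% of all genes. Sdha, the catalytic subunit of the succinate dehydrogenase that itaconate inhibits, was named after its values were seen. It stood at 79.3 CPM in healthy blood, 43.9 CPM in the joint, 25.9 CPM in the lung and 28.7 CPM in the peritoneum. Its log2 folds on total UMIs were -0.85, -1.61 and -1.46 at these sites. The subunit genes Sdhb and Sdhd, also so named, stood at -0.69, -0.69 and -0.85, and at -0.39, -0.96 and -1.79. TMM scaling raises each of these log2 folds by 0.57, 0.91 and 0.92, respectively. Of 8 NRF2 and electrophile response genes, 4 were higher at each site, and 1 was lower in the lung and 1 in the peritoneum. Over all genes 10.6%, 12.1% and 12.3% were higher in joint, lung and peritoneum. The gene past 2-fold lower was Hmox1 in the lung and Atf3 in the peritoneum. Log2 folds in joint, lung and peritoneum were 0.54, -1.25 and -0.77 for Hmox1 and 1.71, -0.61 and -1.94 for Atf3. Those of Gclm, also of this list, were 0.90, -0.53 and -0.20. These genes were named after their values were seen. The list's median log2 fold was 1.03, 0.44 and 0.91 in joint, lung and peritoneum. With TMM scaling 7 of 9 such genes were higher in the joint, 5 in the lung and 5 in the peritoneum, with 0, 0 and 1 lower and medians of 1.74, 1.91 and 2.03, beside 20.2%, 25.7% and 25.6% of all genes higher and medians over all genes of 0.23, 0.12 and 0.12.

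In the NRF2 list, Slc7a11, the cystine importer, stood at 203 CPM in healthy blood and was 6.90-fold (6.05 to 7.90) higher in the joint, 10.3-fold (8.96 to 11.8) in the lung and 7.66-fold (6.66 to 8.85) in the peritoneum. Txnrd1, thioredoxin reductase, was 2.64-fold (1.85 to 3.92) higher in the joint but 15.04-fold (10.5 to 22.4) in the lung and 17.1-fold (11.9 to 25.5) in the peritoneum. Nfkbiz, which encodes IκBζ, was 1.17-fold in the joint (1.00 to 1.38), 2.49-fold higher (2.096 to 2.98) in the lung and 6.86-fold higher (5.83 to 8.10) in the peritoneum.

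Around arginine, most genes of uptake and synthesis were too low to enter the count. Of 14 such genes only Slc3a2, the heavy chain of several amino acid transporters, passed the minimum. It was 10.4-fold (7.73 to 14.2) higher in the joint, 2.38-fold (1.68 to 3.42) in the lung and 1.59-fold (1.06 to 2.40) in the peritoneum. The cationic amino acid transporter genes Slc7a1 and Slc7a2, named here after their values were seen, were at no more than 0.762 and 2.13 CPM in any condition. Slc7a6 and Slc7a7 of the same list, also so named, were at no more than 0.201 and 2.11 CPM. Which transporters the Slc3a2 RNA served was not tested. The citrulline-recycling gene Ass1, also so named, had no UMI. Of 12 nitric oxide synthesis genes 2 passed the minimum, Gch1 and Pts, named after their values were seen, whose products make the Nos2 cofactor tetrahydrobiopterin. Gch1 stood at 16.9 CPM in healthy blood and passed only through the sites where it was high, as did none of the other 40 list genes. The log2 folds of Gch1 were 1.95, 2.14 and 1.59 in the joint, lung and peritoneum, and those of Pts were -0.47, 1.22 and -0.96.

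Downstream of ornithine, Oat, ornithine aminotransferase, was the 1 gene of 7 in its list that passed the minimum. It was lower than healthy blood at 0.3995-fold (0.296 to 0.548) in the joint, 0.244-fold (0.131 to 0.432) in the lung and 0.491-fold (0.288 to 0.811) in the peritoneum, and past 2-fold in the lung alone with TMM scaling. Of 8 polyamine genes that passed the minimum, Smox, spermine oxidase, was higher 8.00-fold (6.45 to 10.0) in the joint, 5.19-fold (4.12 to 6.62) in the lung and 6.27-fold (4.96 to 8.02) in the peritoneum. In all, of these 8 polyamine genes 1 was past 2-fold higher and none lower in the joint, 2 were higher and 3 lower in the lung, and 2 were higher and none lower in the peritoneum, beside 10.6% and 18.5%, 12.1% and 44.0%, and 12.3% and 44.9% of all genes. With TMM scaling 2, 2 and 3 were higher, beside 20.2%, 25.7% and 25.6% of all genes, and none lower.

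Of 13 genes of known inducers and receptors, 5 were higher and 1 lower in the joint, 7 and 3 in the lung, and 8 and 1 in the peritoneum, beside the shares over all genes of 10.6% and 18.5%, 12.1% and 44.0%, and 12.3% and 44.9%. With TMM scaling they were 5 and 0, 9 and 1, and 9 and 0, beside 20.2% and 4.24%, 25.7% and 16.2%, and 25.6% and 15.3%. Cd14, the co-receptor of lipopolysaccharide, stood at 103 CPM in healthy blood and was higher 32.7-fold (27.3 to 39.6) in the joint, 86.3-fold (71.9 to 105) in the lung and 52.9-fold (44.0 to 64.1) in the peritoneum. Tlr2, a receptor of bacterial lipoproteins, was higher 5.68-fold (4.60 to 7.09), 11.3-fold (9.07 to 14.2) and 11.6-fold (9.33 to 14.6) in the same order. Cebpb, a transcription factor of myeloid cells, was higher 5.58-fold (5.28 to 5.91), 5.07-fold (4.78 to 5.38) and 3.84-fold (3.61 to 4.10).

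The joint lay below both IL-1β sites in Nfkb1. Nfkb1, which encodes the p105 precursor of NF-κB p50, was 1.17-fold (0.915 to 1.53) in the joint but higher 7.26-fold (5.64 to 9.48) in the lung and 9.79-fold (7.60 to 12.8) in the peritoneum. Hif1a, the oxygen-regulated transcription factor, was higher at each site, 4.83-fold (3.92 to 6.02) in the joint, 6.83-fold (5.48 to 8.58) in the lung and 3.57-fold (2.81 to 4.58) in the peritoneum. Set directly against each other, Hif1a in the joint was 0.708-fold (0.654 to 0.767) of the lung and 1.35-fold (1.196 to 1.54) of the peritoneum. On the scale of total UMIs it thus lay between them. TMM scaling raises the log2 fold of the joint by 0.57 and that of the peritoneum by 0.92, which brings joint and peritoneum closer together. The joint was taken on day 7 of arthritis and the IL-1β sites after 3 hours, so that tissue, stimulus and time cannot be told apart.

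**Figure D5:**
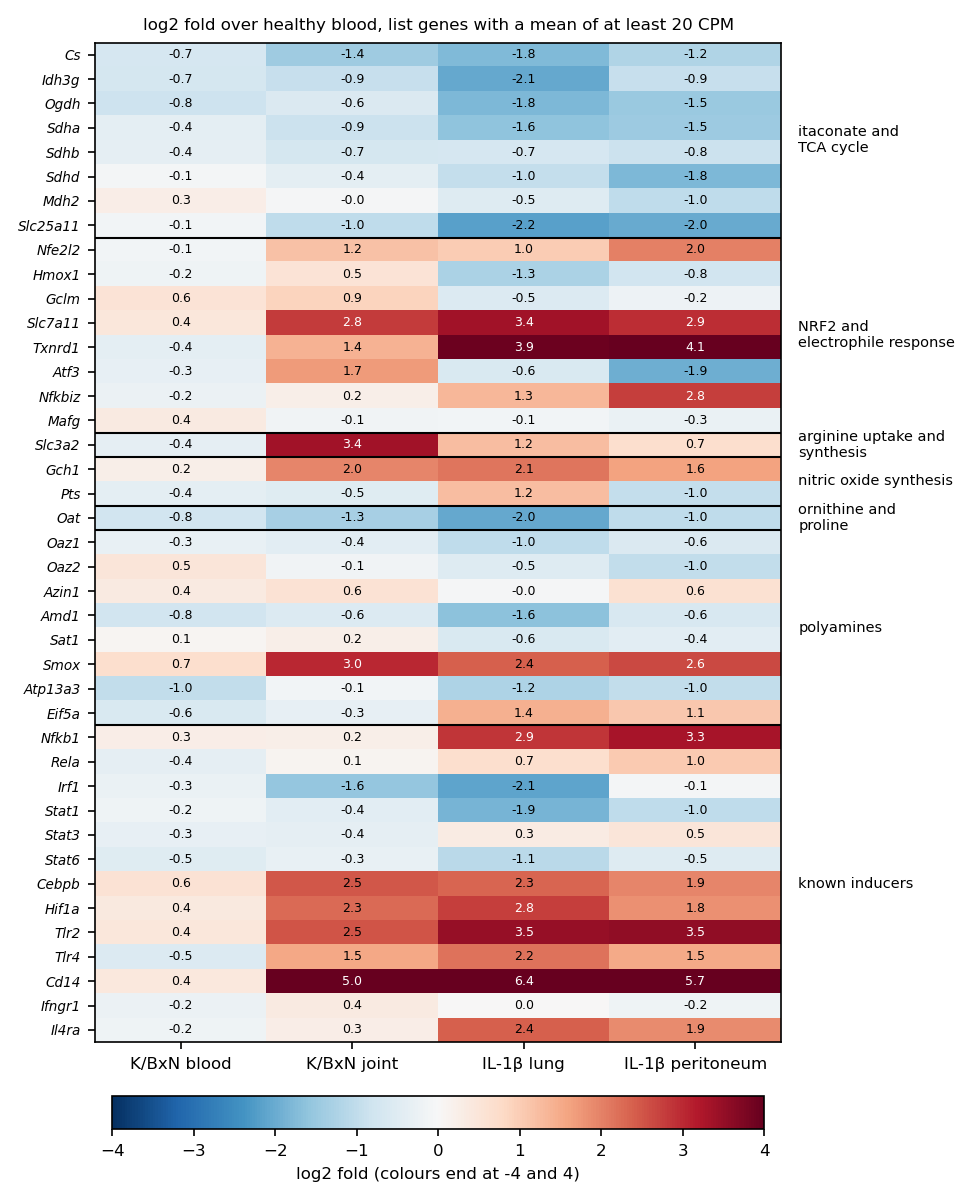
Log2 fold over healthy blood on the scale of total UMIs (colours and printed values) of the 41 list genes with a mean of at least 20 CPM (rows, grouped by list) in the 4 other conditions (columns). TCA cycle genes are mostly below 0 at the inflamed sites, as is the median gene (-0.36 to -0.85), while Slc7a11, Smox, Cebpb, Tlr2 and Cd14 stand out above 0 at all 3 sites.

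None of the 3 genes was listed in all 6 healthy libraries, whereas 57 list genes could be fitted. They were read from an edgeR quasi-likelihood test over 6463 genes with the run as a block, which was kept because each run took its 3 tissues from the same mice. In bone marrow against blood 8 of the 57 were called higher and 12 lower, beside 14.0% and 14.1% of all genes. Markers of other cells moved with this contrast in the same neutrophil-like cells: the 15 markers of neutrophil precursors summed to 4376 and 5731 CPM in bone marrow of runs 1 and 2 against 1209 and 1028 CPM in blood, and the 11 of monocytes and macrophages to 1354 and 1002 CPM against 645 and 262 CPM. Erythroid markers (7 genes) reached 13868 CPM in run 2 blood and 90.6 to 677 CPM elsewhere. The part of these cells in the calls was not tested. In spleen against bone marrow 4 were called higher and 1 lower, beside 3.93% and 0.248%. In spleen against blood none was called by edgeR (4 at an unadjusted p under 0.05) and 0 by DESeq2, beside 0.0619% of all genes called higher and 0.0309% lower by edgeR. Without the block no gene was called in any of these contrasts, and in bone marrow against blood 1715 genes then had an unadjusted p under 0.05. Leaving out blood of run 1 or of run 2 took the calls over all genes in bone marrow against blood from 1812 to 317 and 308.

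In bone marrow against blood the log2 fold change was -3.35 for Cd14 (SE 0.329, edgeR adjusted p = 9.68e-05), -2.20 for Oat (SE 0.376, adjusted p = 0.00169) and -2.15 for Slc7a11 (SE 0.376, adjusted p = 0.00186). Mdh1 and Idh1, the cytosolic malate and isocitrate dehydrogenases, rose in bone marrow by 2.16 (SE 0.295, adjusted p = 0.00056) and 1.57 (SE 0.354, adjusted p = 0.00673), and Mafg, a partner of NRF2, by 1.56 (SE 0.276, adjusted p = 0.00195). In spleen against bone marrow Cd14 rose by 3.14 (SE 0.325, adjusted p = 0.000386), Oat by 1.67 (SE 0.378, adjusted p = 0.0302), and Irf1 and Ifngr1, of the interferon response, by 1.15 and 0.99 (adjusted p = 0.0319 and 0.0376), while Keap1, the repressor of NRF2, had a log2 fold change of -1.35 (adjusted p = 0.0453).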

How the data were processed

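The deposited values were UMI counts of each gene symbol in each cell, which the authors made with Cell Ranger on mm10 (versions 1.2.0, 2.1.0 and 3.0.2 for run 1, run 2 and the inflammation library), before their cell filters. The deposited table of cells gave each cell's hashtag condition and nearest ImmGen population. Tables of run 1 list 7346 to 8657 symbols, those of the other libraries 28692. Genes unlisted in a table were treated as missing, so that the healthy fit covered the 6691 symbols listed in all 6 tables, which include none of the 3 enzymes described. Of the enzymes chosen, 2 are not reported here. The permutation test planned for genes outside the fit was run for Odc1 only, and again with signs turned within runs, a choice made after seeing the data.

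Healthy cells were clustered in each run with scanpy 1.11.5 and leidenalg 0.10.2 (resolution 2.0, 15 neighbours, 30 principal components, 2000 variable genes) and clusters named from fixed markers of 12 cell types. No doublet caller was run. Hashtag doublets had been removed by the authors. Cells with over 5% mitochondrial UMIs or outside 281 to 1886.5 genes were left out. Counts were summed per library or condition. Healthy libraries held 1259290 to 8324979 kept UMIs. Tissues were tested with edgeR 4.0.16 (quasi-likelihood, TMM, filterByExpr, run as a block, Benjamini-Hochberg, 0.05) after the code was tested on simulated data. Libraries of a run deviated together (correlations of 0.674, 0.688 and 0.666 over 6463 genes), and the study's methods take the tissues of a run from the same mice. DESeq2 1.42.0 was an alternative.

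Conditions of the inflammation library had 1 pool each and were not tested. CPM got exact Poisson intervals, shares exact Clopper-Pearson intervals and folds exact conditional intervals, all at 95% and for counting error only. Shares were taken after thinning to 1000 UMIs. Counts under 3 were set to 3 in counts of genes past 2-fold. Promoters came from RefSeq (GRCm38.p6), and 3′ UMI counts were not divided by length. Named list genes were the up to 6 with the largest absolute fold past the threshold in each comparison, and likeness was the Pearson correlation of log2(CPM + 10). The genes and lists were chosen with earlier results of these data known. Replicates are 2 pools per tissue, so that p-values rest on few samples.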

Additional observations from a re-analysis of the deposited data

Results flagged for a closer look

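Signals outside the neutrophil-like cells were found for Odc1 in B-cell-like cells of the run 2 healthy libraries, which entered no comparison above and stood above the counting interval of the neutrophil-like cells in the same library. B-cell-like cells held 62.5 CPM in blood (32.3 to 109, 102 cells, median 1670 UMIs), 52.7 CPM in bone marrow (34.4 to 77.2, 270 cells, median 1522 UMIs) and 39.7 CPM in spleen (31.9 to 48.8, 1358 cells, median 1428 UMIs). Neutrophil-like cells of the same libraries held 11.0, 5.17 and 14.0 CPM. T-cell-like cells of spleen stood at 25.5 CPM (17.8 to 35.2), an interval that overlapped that of the neutrophil-like cells (9.15 to 20.5). The part of free RNA from lymphocytes in the Odc1 values of neutrophils was not tested.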

How the results depend on the processing

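The 8 folds of Irg1 and Odc1 over healthy blood kept within their counting intervals with no filter on cells. The 3 folds of Nos2 over the floor likewise kept within the Poisson interval of their own UMIs. Both also held with cells of at least 1000 UMIs, an alternative added after seeing the data. Taking deposited cells of every type left the same cells, since the 4 others fail the filters, and tests nothing. TMM scaling moved 6 of these 11, to 46.8, 61.9 and 107 for Irg1 in joint, lung and peritoneum and to 3.58, 16.1 and 26.4 over the floor for Nos2. The Odc1 fold of KBxN_blood turned from 0.909 to 1.25 with TMM scaling and to 1.04 with cells of at least 1000 UMIs, within its interval. The mean over cells of each cell's CPM gave Irg1 folds of 21.9, 24.7 and 42.1 at the 3 sites, and 0.998 for Odc1 in the peritoneum. Pathway genes past 2-fold in KBxN_blood, 0 in all, became 3 with a minimum of 5 CPM, 8 at 1.5-fold and 3 with TMM scaling.

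Calls over all genes in bone marrow against blood, 1812 in the fit reported, were 1106 by DESeq2, 927 in cells under 1% granule UMIs, 0 without the replicate block (1715 at an unadjusted p under 0.05) and 0 with cells of every type (1137), and 308 to 2662 without each library (308 and 317 without blood of run 2 and run 1, 680 without bone marrow of run 2). Total UMIs changed the split from 903 higher and 909 lower to 448 and 1408. In cells under 1% granule UMIs they changed it from 507 and 420 to 225 and 1401, which is 1626 calls. In spleen against blood the 6 calls became 17 by DESeq2, 20 with total UMIs, 2 with RLE factors, 1 with no filter on low counts, 1 in cells under 1% granule UMIs with total UMIs, and 0 with no filter on cells, without the replicate block, with cells of every type and with unlisted symbols as 0, and 0 to 860 without each library (860 without spleen of run 2). In spleen against bone marrow the 270 calls (254 higher and 16 lower) became 813 (374 and 439) and, with total UMIs, 1526 (1316 and 210) in cells under 1% granule UMIs, 149 with unlisted symbols as 0, 0 without the replicate block and with cells of every type, and 87 to 1488 without each library (1488, of which 794 higher, without spleen of run 1, 836, of which 427 higher, without bone marrow of run 1, 176 or fewer without any other). The cause of these changes was not tested. The 3 enzymes were outside this fit, so that its alternatives give no value for them. Depth limits Nos2 and Odc1, which rest on 111 UMIs or fewer in any condition.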
